A study of Homo sapiens with 6 samples.

Results

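The GAGE, PAGE, XAGE, SPANX, CT45, CT47, CTAG and SSX families were examined in U2OS cells, a human osteosarcoma line, with and without knockdown of TUSC4. Members were the array probes whose symbol begins with one of these names, with a digit required after SSX, and 133 of the 47231 probes met this rule. They carried 76 of the array's 31334 symbols, in 8 families. Total RNA from 3 samples with a control shRNA, labelled as parental cells, and 3 samples with a stable TUSC4 knockdown was read on Illumina bead arrays with biotin labelling. The shRNA sequences, the vector, the time in culture, and whether the knockdown cells were 1 clone or a pool are not stated in the labels. Both groups shared 1 BeadChip, on which each took adjacent positions, so position and group cannot be told apart. The labels do not state that replicates were grown as separate cultures, so errors and p-values here describe the variation among these 6 samples and may be technical.

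Cancer-testis genes are active in male germ cells, silent in most other adult tissues and switched on again in many tumours. Most of the families described here sit on the X chromosome as tandem arrays of copies, and their promoters are kept silent in somatic cells by DNA methylation. GAGE, PAGE and XAGE are related families of small acidic proteins. SPANX proteins are found in the nuclear envelope of sperm. CTAG1A and CTAG1B both encode the tumour antigen NY-ESO-1, and CTAG2 encodes the related antigen LAGE-1. SSX genes encode repressors that are fused to SS18 in synovial sarcoma. The prefixes also take in genes of other kinds. CTAGE genes are related to an endoplasmic reticulum export factor (CTAGE5 is now named MIA2), and SSX2IP encodes a centrosomal protein that binds SSX proteins.

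Many copies within these families are nearly identical, but not all. The sequences of the array's probes were not used here, so a probe's symbol need not show which copy was measured. Of the 76 symbols, 53 are current RefSeq symbols (GRCh38.p14), 12 are an older name of 1 gene, 4 are shared by several genes and 7 had no match. SPANXE is now a synonym of both SPANXC and SPANXD, CT45A4 of both CT45A3 and CT45A5, and XAGE1 of both XAGE1A and XAGE1B. Promoter windows of 300 bases, 250 before and 50 after the annotated start, were available from RefSeq for 50 family symbols, of which 42 are on the array.

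The sequences of these windows show how close the copies are. The following pair is shown because the 2 windows nearly match while the probes of these symbols gave different values. Capitals mark the 5 bases at which the windows differ, which leaves them 98.3% identical. Both are on the minus strand of GRCh38.p14, written 5′ to 3′, SPANXA1 at chrX:141584689-141584988 and SPANXC at chrX:141242468-141242767.
SPANXA1: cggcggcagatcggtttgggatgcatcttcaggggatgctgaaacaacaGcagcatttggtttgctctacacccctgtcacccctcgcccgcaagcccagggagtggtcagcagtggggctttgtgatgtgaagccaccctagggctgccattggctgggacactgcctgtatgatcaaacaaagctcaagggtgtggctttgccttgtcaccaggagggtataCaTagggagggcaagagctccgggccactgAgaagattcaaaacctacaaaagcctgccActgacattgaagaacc
SPANXC: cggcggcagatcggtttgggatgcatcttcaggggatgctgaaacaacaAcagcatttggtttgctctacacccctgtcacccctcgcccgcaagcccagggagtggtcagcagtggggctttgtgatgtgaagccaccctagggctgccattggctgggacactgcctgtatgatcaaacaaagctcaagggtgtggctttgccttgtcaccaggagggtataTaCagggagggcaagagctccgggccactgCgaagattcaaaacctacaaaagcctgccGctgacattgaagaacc
The window of SPANXA2 was identical to that of SPANXA1, that of SPANXB1 was 75% identical to it and that of SPANXD 47.3%. Windows are placed by the annotated start, so copies with different starts are shifted. The SPANXB1 alignment held 5 mismatches and 80 gap positions, and the last 27 bases of the SPANXD window were the first 27 of the SPANXA1 window.

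Windows of GAGE, PAGE and XAGE shared a short run of bases across families. The 4 windows below are shown because they come from loci whose probes fell (GAGE, PAGE2) or did not pass (PAGE2B, XAGE1). Capitals mark TGCGCATG or its reverse complement, an 8-base run picked after these sequences were read. They lie at chrX:49579699-49579998, chrX:55088768-55089067 and chrX:55074780-55075079 on the plus strand and chrX:52516963-52517262 on the minus strand of GRCh38.p14.
GAGE12H: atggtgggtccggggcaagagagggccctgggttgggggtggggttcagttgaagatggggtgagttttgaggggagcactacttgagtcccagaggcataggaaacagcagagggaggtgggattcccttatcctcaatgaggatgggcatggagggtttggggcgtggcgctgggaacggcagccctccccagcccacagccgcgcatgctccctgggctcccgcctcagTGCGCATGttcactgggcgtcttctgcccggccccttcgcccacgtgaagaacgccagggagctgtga
PAGE2: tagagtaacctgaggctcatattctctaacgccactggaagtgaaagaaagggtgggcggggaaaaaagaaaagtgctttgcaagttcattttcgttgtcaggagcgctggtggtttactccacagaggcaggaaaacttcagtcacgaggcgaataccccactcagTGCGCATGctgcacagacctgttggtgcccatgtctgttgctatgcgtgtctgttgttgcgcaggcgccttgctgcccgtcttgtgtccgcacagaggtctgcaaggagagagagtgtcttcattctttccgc
PAGE2B: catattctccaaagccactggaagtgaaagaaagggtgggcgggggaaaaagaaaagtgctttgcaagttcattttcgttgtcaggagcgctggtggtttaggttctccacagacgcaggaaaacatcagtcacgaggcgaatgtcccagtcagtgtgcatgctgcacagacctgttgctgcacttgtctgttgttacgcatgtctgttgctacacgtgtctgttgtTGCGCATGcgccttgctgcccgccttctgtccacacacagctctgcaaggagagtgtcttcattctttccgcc
XAGE1B: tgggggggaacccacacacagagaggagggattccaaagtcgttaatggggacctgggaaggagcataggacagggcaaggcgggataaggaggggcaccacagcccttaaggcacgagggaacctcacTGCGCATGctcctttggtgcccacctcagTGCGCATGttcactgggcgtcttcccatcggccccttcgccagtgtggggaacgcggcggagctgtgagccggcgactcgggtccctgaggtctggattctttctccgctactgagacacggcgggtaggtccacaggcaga
The run, searched on both strands, was in all 12 GAGE windows, 5 of 6 PAGE windows and 4 of 5 XAGE windows. It was in 0 of 9 SPANX windows, 0 of 7 SSX windows without SSX2IP, and 0 of 3 CT45 windows. Of all 35116 RefSeq promoter windows 2.18% held it. Copies share descent, so these counts are not independent, and a match is not evidence of a bound site. The CCAAT box (letters CCAAT, both strands) was in 9 of 9 SPANX windows, 7 of 7 SSX windows, 3 of 6 PAGE windows, 1 of 3 CT45 windows, 1 of 5 XAGE windows and 0 of 12 GAGE windows, against 34.6% of all windows. The number of CG dinucleotides was 11 to 13 in GAGE windows, 4 to 13 in PAGE, 8 to 17 in XAGE, 8 to 18 in CT45 and 1 to 9 in SPANX, with a median of 14 over all windows. The windows of GAGE12C, GAGE12D, GAGE12E, GAGE12F, GAGE12H, GAGE12J and GAGE2A were the same in all 300 bases. Window identity was 81% between PAGE2 and PAGE2B and 100% between XAGE1A and XAGE1B.

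The knockdown and the cells were checked first. TUSC4 (NPRL2), a subunit of the GATOR1 complex that restrains mTORC1, had signals of 1105, 942.6 and 976.9 with the control shRNA and 366.1, 345 and 481.5 with the TUSC4 shRNA. Its log2 difference was -1.18 ± 0.10 (SE, limma adjusted p = 7.17e-07), and the third knockdown sample kept the highest TUSC4 signal of the 3. Differences are TUSC4 shRNA minus control shRNA in mean log2 intensity after background correction with an offset of 50 and quantile normalization, and the offset shrinks those of dim probes. Of 22 listed genes of mesenchymal and osteosarcoma cells, 17 were above background on at least 3 arrays, with VIM on all 6. COL1A2, FN1, SP7 and TWIST1 were above it on 1 array only and IBSP on 2. Of 36 germ cell markers, 20 were above background on no array, among them DDX4, STRA8, PRM1, PRM2 and ACRV1, while NANOS3, ID4, SYCE1, DMC1, REC8 and STAG3 were above it on all 6. Of 16 epithelial markers 9 were above background on no array, CDH1 among them, and EPCAM, KRT8, KRT18 and MUC1 were above it on all 6. Of 16 blood markers 9, CD3E and HBB among them, were above background on no array. CD68 was above it on all 6, LYZ on 5 and CD14 on 4.

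Of the 133 member probes, 65 were kept as above the estimated background on at least 3 of the 6 arrays, and 68 were not. The members were chosen with this contrast already known, so their differences are given as descriptions without p-values. A probe is called higher or lower where limma's adjusted p over all 20657 kept probes was under 0.05. On that rule 9 kept members were called higher, 41 lower and 15 neither. Over all kept probes 11.8% were called higher and 12.5% lower, 24.3% in all, a split of 2437 and 2585 that became 744 and 4418 with median scaling between arrays. The 9 higher probes were all in SPANX. The lower ones were 23 GAGE, 7 CT45, 5 CTAG, 4 PAGE, 1 XAGE and 1 SPANX. The groups did not overlap for 10 kept members on the higher side and 46 on the lower, against 18.8% and 19.6% of all kept probes, or 38.3% in all. A difference of at least 2-fold was reached by 26 members on the lower side and 6 on the higher, against 0.673% and 0.315% of kept probes.

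**Figure D1:**
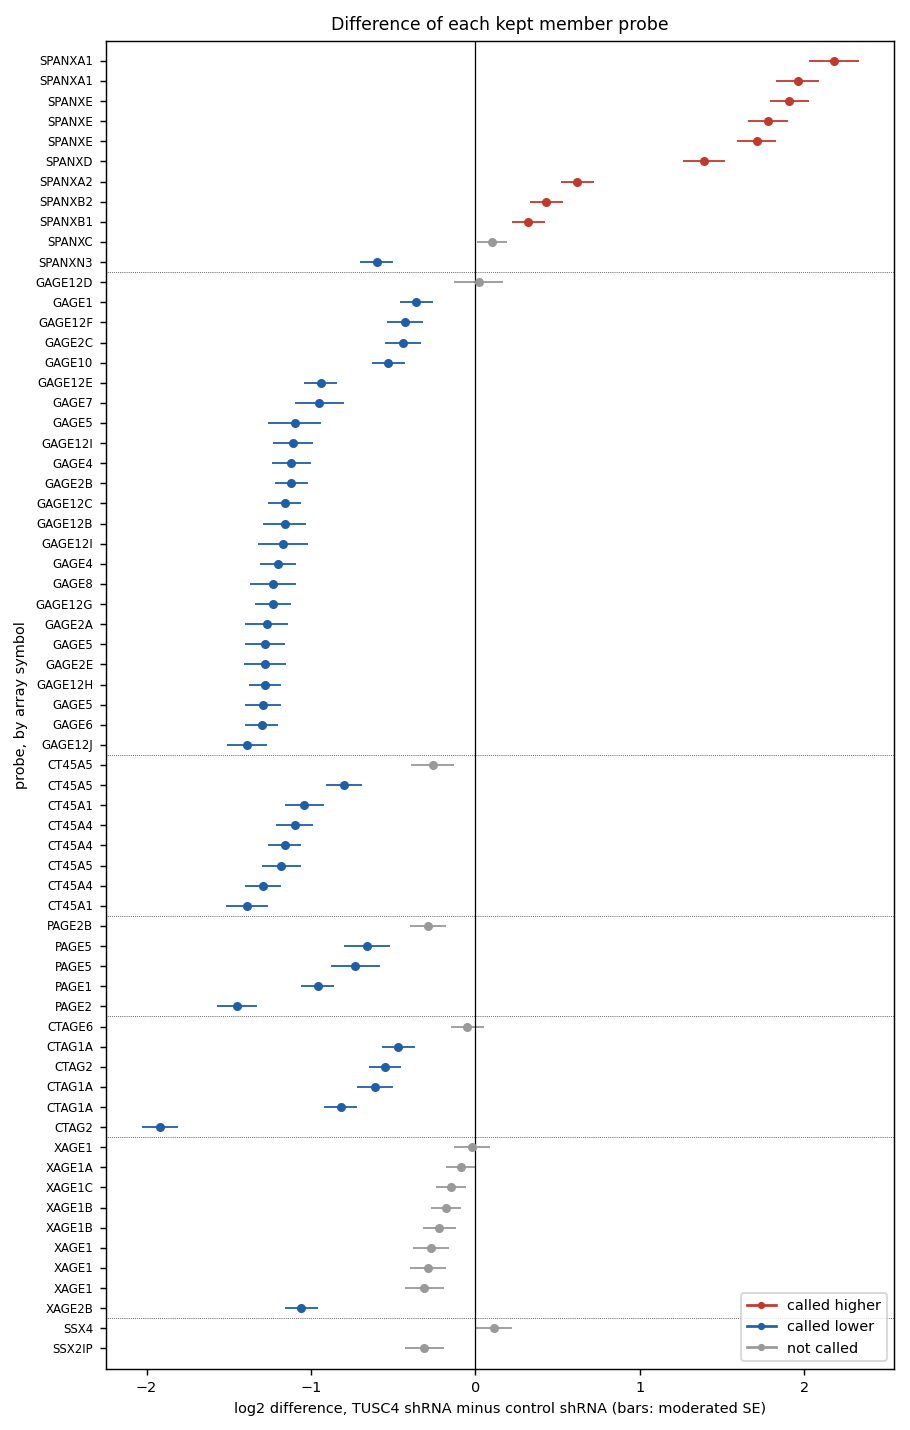
Log2 difference (TUSC4 shRNA minus control shRNA) of each of the 65 kept member probes, grouped by family and labelled with the array symbol; points are differences of group means, bars the moderated SE. Red points (9) were called higher, blue (41) lower and grey (15) neither, and the red points are all SPANX.

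The filter bears on these counts. 8 kept members were above background in 1 group only, 6 in the control group (5 of CTAG and PAGE1) and 2 in the knockdown group (1 of SPANXA1, and SPANXD). Such probes had to differ in order to be kept. A fold given as "at least" holds on the background-corrected and normalized scale only, and uncorrected signals, which include the background, give smaller folds. Just outside the filter, with 2 arrays above background, lay probes of CT45A1 (-0.26), CT45A6 (0.14), CT47A1 (0.15), CT47A7 (-0.25), SSX3 (0.03) and XAGE1E (0.06). Differences of the 68 probes not kept ran from -0.29 to 0.20, with signals between 91.4 and 142. Over all 133 probes, kept or not, the median difference was -0.09, and that of all array probes was 0.00.

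GAGE, the largest family here, fell almost throughout. Of its 29 probes 24 were kept, and 23 were called lower and 1 neither. Over all 29 probes the median difference was -1.12. The 23 called probes lay between -1.39 and -0.36, and 17 of them fell at least 2-fold. The groups did not overlap for those 23.

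GAGE12J, whose difference was the largest of the family, had signals of 3114, 3025 and 2769 with the control shRNA and 886.2, 830.8 and 1362 with the TUSC4 shRNA. The lowest control value was more than the highest knockdown value, and the third knockdown sample was the highest of its group. The difference was -1.39 ± 0.12 (SE, n = 3 in each group). GAGE6 went from 4668, 3675 and 3705 to 1252, 1373 and 1672 by its 1 kept probe of 3, a difference of -1.30 ± 0.10. GAGE12H went from 2772, 2537 and 2538 to 850.2, 832.1 and 1156, or -1.28 ± 0.10. In both the knockdown samples lay below every control sample.

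The 3 probes of GAGE5 gave -1.28 ± 0.12, -1.29 ± 0.11 and -1.10 ± 0.16. The first went from 4440, 4308 and 3701 to 1298, 1252 and 2113, and the second from 4256, 4299 and 3812 to 1312, 1304 and 1915. GAGE2E went from 1648, 1524 and 1401 to 450.8, 487.3 and 748, a difference of -1.28 ± 0.13. The probes of 1 symbol thus gave similar values where several were kept, as did the 2 of GAGE4 (-1.12 and -1.20) and of GAGE12I (-1.11 and -1.17).

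Not every GAGE probe fell to the same degree. GAGE12D had 387.5, 353.6 and 313.3 with the control shRNA and 252.5, 252.4 and 424.6 with the TUSC4 shRNA, which overlap, and its difference was 0.02 ± 0.15. The first and second knockdown samples lay below the controls and the third above them. GAGE12F went from 1255, 1016 and 996.7 to 668.7, 541.1 and 872.6, a smaller fall of -0.43 ± 0.11. Smaller differences were also found for GAGE2C (-0.44), GAGE1 (-0.36 by its kept probe) and GAGE10 (-0.53). GAGE10 was above background on 1 knockdown array and GAGE1 on 2. GAGE4 is now a synonym of GAGE1, and GAGE7 of GAGE12F. Under those older names the falls were larger, at -1.12 and -1.20 for GAGE4 and -0.95 for GAGE7. The 7 symbols that share 1 promoter window, GAGE12D and GAGE12F among them, had differences from -1.39 to 0.02 over their 7 probes. The 5 GAGE probes not kept, 3 of GAGE1 and 2 of GAGE6, lay between -0.15 and 0.12.

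**Figure D2:**
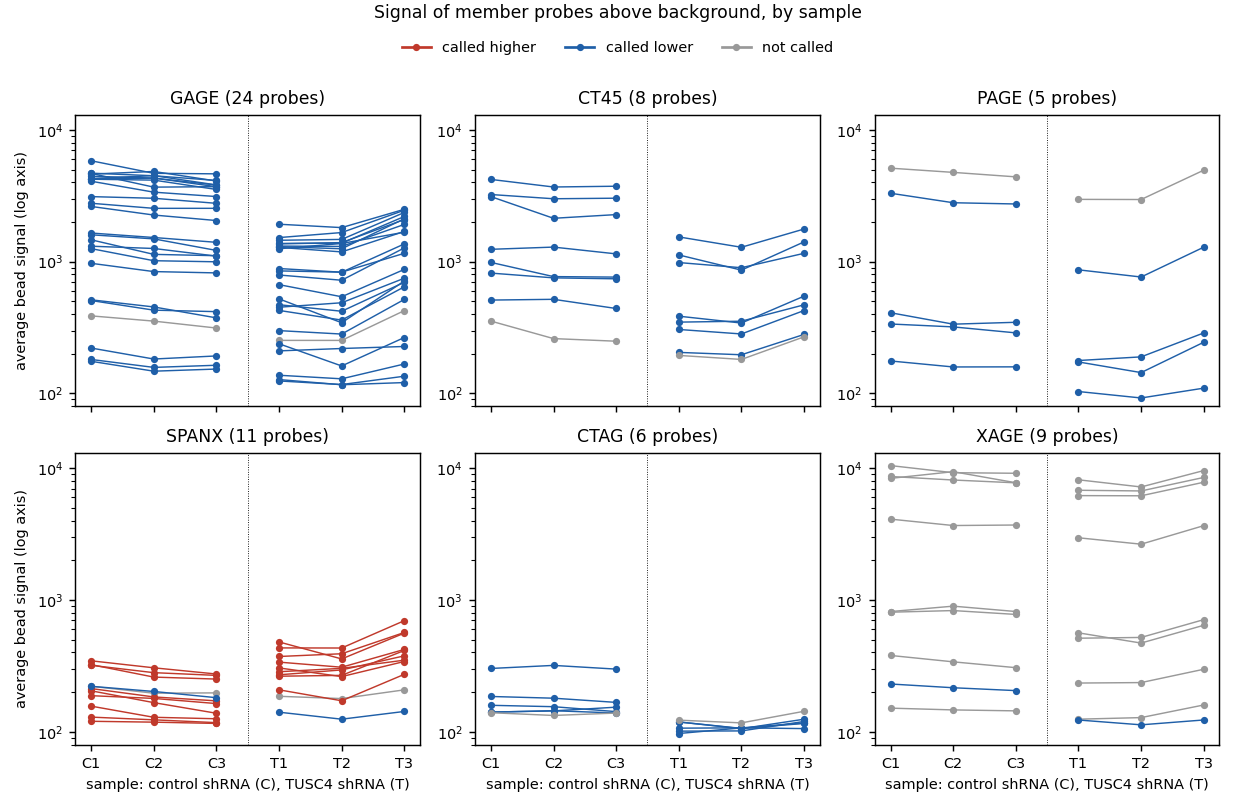
Average bead signal (log axis) of each kept member probe in the 3 control shRNA (C1 to C3) and 3 TUSC4 shRNA (T1 to T3) samples, before normalization, in 6 families; a line joins the samples of 1 group for each probe, coloured by its call. Most GAGE, CT45 and CTAG lines step down from C to T and most SPANX lines step up. XAGE lines apart from XAGE2B step down less than most GAGE lines. XAGE1 lines with control means of 844 and 806 go to 581 and 559. The groups overlap for GAGE12D, CTAGE6, a CT45A5 probe and PAGE2B. They also overlap for XAGE1A, the first XAGE1B probe, some probes labelled XAGE1, SPANXA2, SPANXB1, SPANXB2 and SPANXC.

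CT45, a family of nuclear proteins on the long arm of X, fell much like GAGE. Of 11 probes 8 were kept, 7 were called lower and 1 neither, and 6 fell at least 2-fold. The median over all 11 was -1.04. The first CT45A1 probe had 1240, 1289 and 1145 with the control shRNA and 385.4, 341.9 and 546.8 with the TUSC4 shRNA, a difference of -1.39 ± 0.13. The second went from 510.7, 517.5 and 440.9 to 204.7, 196.4 and 280.1, or -1.04 ± 0.12. In both the groups were well apart.

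The 3 CT45A4 probes gave -1.16 ± 0.10, -1.29 ± 0.11 and -1.10 ± 0.11. Their signals went from 4205, 3684 and 3734 to 1540, 1285 and 1767 for the first, from 3230, 3000 and 3029 to 1124, 861.8 and 1411 for the second, and from 3115, 2132 and 2274 to 983.8, 898.8 and 1156 for the third. For each of them the lowest control sample was above the highest knockdown sample. The 3 CT45A5 probes disagreed in size. One went from 986.5, 769.6 and 762.9 to 305.6, 282.5 and 425.3 (-1.18 ± 0.12) and another from 818.3, 752.9 and 740.4 to 347.4, 353 and 469.8 (-0.80 ± 0.11). The last went from 353.8, 260.5 and 248.9 to 194.2, 181 and 268.6, with groups that overlap, and its -0.26 ± 0.13 was not called. Without the third knockdown sample it was -0.42 and called lower.

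The PAGE family was uneven. Of 8 probes 5 were kept, of which 4 were called lower, and the median over all 8 was -0.48. PAGE2 had signals of 3302, 2798 and 2738 with the control shRNA and 866.3, 764.1 and 1287 with the TUSC4 shRNA, a fall of -1.45 ± 0.12 on the log2 scale. Its neighbour and near copy PAGE2B went from 5118, 4756 and 4398 to 2967, 2960 and 4942. The third knockdown sample of PAGE2B lay among the controls, and the difference of -0.29 ± 0.11 was not called. Without that sample it was -0.42 and called lower.

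The kept PAGE5 probes, 2 of 3, gave -0.66 ± 0.14 and -0.73 ± 0.15. The first went from 409.2, 335.2 and 346.4 to 177.6, 189.3 and 287.6, and the second from 336.2, 319.6 and 287.9 to 173.2, 143.8 and 244.4. For both, all knockdown samples were below all controls. PAGE1 had 176.2, 158.7 and 159 with the control shRNA and was not above background on any knockdown array, at 103.3, 92.3 and 109.6, so its fall was at least 1.38-fold. PAGE3 and PAGE4, a disordered protein studied in prostate, were not kept.

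CTAG1A and CTAG2 fell to a level not above background. Of the 7 probes of CTAG1A, CTAG1B and CTAG2, 5 were kept, and all 5 were called lower. These 5 were above background in the control group only and had to differ in order to be kept, so this count carries no weight. The probes not kept, of CTAG1B, were at -0.10 and -0.20. CTAG2 by its first probe had 302.3, 318.9 and 298.9 with the control shRNA and 101.1, 101.5 and 119.7 with the TUSC4 shRNA. The control samples were close together, and the fall was at least 2.97-fold on the corrected scale (measured difference -1.92 ± 0.11, and -1.37 without background correction). The second CTAG2 probe went from 140.9, 144.4 and 138.9 to 106.5, 107.1 and 105.7, a fall of at least 1.14-fold (-0.55 ± 0.10).

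The first of the 3 CTAG1A probes went from 185.3, 179.8 and 167.1 to 118.7, 106.1 and 115.6, a fall of at least 1.53-fold (-0.82 ± 0.10). The second went from 158.8, 155 and 142.2 to 118.7, 105.6 and 124.5, at least 1.25-fold, and the third from 141.1, 144 and 153.7 to 97, 107 and 116.6, at least 1.19-fold. The knockdown samples of each lay below all its controls. Both CTAG1B probes were not kept, although CTAG1A and CTAG1B are copies that encode the same protein. Of the 10 CTAGE probes only 1, of CTAGE6, was kept, with -0.05 ± 0.10. Over all 17 CTAG probes the median was -0.05, and over those of CTAG1A, CTAG1B and CTAG2 it was -0.55.

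The XAGE1 probes were not called. Its symbols (XAGE1, XAGE1A, XAGE1B, XAGE1C, XAGE1D and XAGE1E) had 10 probes, of which 8 were kept and 0 called by limma (3 at an unadjusted p under 0.05), with differences from -0.31 to -0.02. XAGE1B by its first probe had 10471, 9248 and 9157 with the control shRNA and 8168, 7208 and 9598 with the TUSC4 shRNA. These overlap before normalization but not after it, and the difference was -0.18 ± 0.09. XAGE1A went from 8655, 8138 and 7748 to 6804, 6723 and 8513, or -0.09 ± 0.09. After normalization 5 of the 8 probes did not overlap between groups, all on the lower side, against 19.6% of kept probes. With median scaling 3 XAGE1 probes were called lower, at -0.55, -0.53 and -0.44, and without control sample 1 it was 2, at -0.42 and -0.37. Without the third knockdown sample 1 was called, at -0.39. Calls were also made without normalization (3), without background correction (1) and with the authors' log2 values (1). That scaling moved the median of all kept probes by -0.11, and leaving out normalization moved it by -0.15. Of the remaining 8 XAGE probes only XAGE2B was kept. It went from 230.4, 215.8 and 205.3 to 122.8, 112.9 and 122.9, with no overlap and 1 knockdown array above background, a fall of -1.06 ± 0.10. XAGE2B is now a synonym of XAGE2. Both probes labelled XAGE2 were above background on no array, with differences of -0.00 and -0.04. The median over all 18 XAGE probes was -0.07.

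SPANX went the opposite way to GAGE and CT45. Of 17 probes 11 were kept, 9 called higher, 1 lower and 1 neither, and the median over all 17 was 0.32. Within the genes SPANXA1 to SPANXF1 the median was 1.01 over 12 probes, and 6 probes rose at least 2-fold. The first SPANXA1 probe had signals of 204.6, 166.4 and 138.2 with the control shRNA and 432.9, 432.1 and 696.6 with the TUSC4 shRNA. Every knockdown sample was above every control, the third highest, and the difference was 2.18 ± 0.15, or 4.52-fold on the corrected scale. With the authors' log2 values the difference of this probe was 1.66. The second SPANXA1 probe, at 129.2, 123.2 and 117.3 in the controls, was not above background there. It reached 264, 267.9 and 413.9 in the knockdown samples, a rise of at least 3.62-fold on the corrected scale (1.96 ± 0.13), with a log2 difference of 1.47 without background correction.

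All 3 SPANXE probes rose. One went from 187.9, 179.1 and 163.7 to 480.4, 357.1 and 560.4 (1.91 ± 0.12), another from 212.8, 183.8 and 171.6 to 372.6, 390.9 and 566.9 (1.71 ± 0.12). The last, above background on 2 control arrays, went from 156.5, 128.8 and 125.5 to 270.6, 294.6 and 376.9 (1.78 ± 0.12). The groups were apart in each. SPANXD was not above background with the control shRNA, at 120.1, 118.3 and 115.7, and reached 208.1, 171.9 and 272.8 with the TUSC4 shRNA, a rise of at least 2.29-fold on the corrected scale, with a log2 difference of 0.98 without background correction. SPANXC, the other current gene to which the SPANXE name belongs, had 221.4, 196.2 and 197.3 against 185.9, 178.6 and 208, and its difference of 0.10 ± 0.09 was not called, although its groups did not overlap after normalization.

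SPANXA2, SPANXB1 and SPANXB2 rose less. SPANXA2 went from 319.4, 280.9 and 267.9 to 337.7, 308.9 and 421.4, with signals that overlap before normalization, and its difference was 0.62 ± 0.10. SPANXB2 was at 0.43 ± 0.10 and SPANXB1 at 0.32 ± 0.10. SPANXB1 by its kept probe had 345.5, 305.8 and 274.3 in the controls, a mean of 309 ± 35.7 (SD, n = 3), and 285.5, 302.9 and 349.4 in the knockdown samples, a mean of 313 ± 33 (SD, n = 3), so the rise appears only relative to the other probes of the array. With median scaling SPANXB1 (0.08) and SPANXB2 (0.21) were not called, and without normalization SPANXA2 (0.36) was not called either. An offset of 16 also ended the call of SPANXB1 (0.36). Leaving out control sample 1 or 3, or knockdown sample 2 or 3, also ended the call of SPANXB1, at 0.33, 0.25, 0.28 and 0.29. SPANXN3, of the distinct SPANX-N branch, moved against the others, from 221.3, 202.2 and 181.4 to 140.8, 124.6 and 142.6, a fall of -0.60 ± 0.10. The other 4 SPANX-N probes were not above background on any array.

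**Figure D3:**
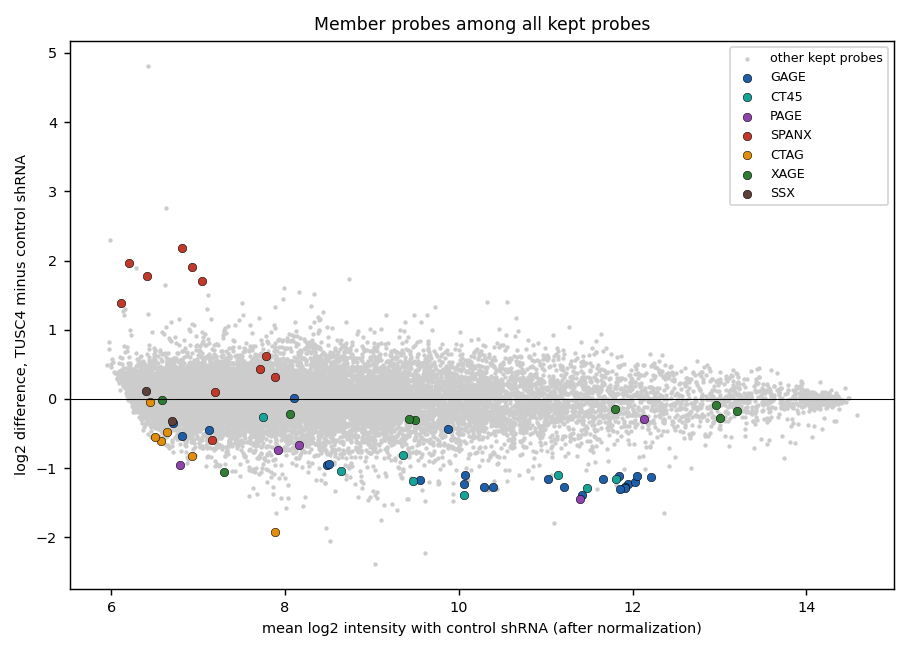
Log2 difference (TUSC4 shRNA minus control shRNA) against mean log2 intensity with the control shRNA for all 20657 kept probes (grey) and the kept members of 7 families (coloured). The 17 GAGE probes that fell at least 2-fold form a band along the lower edge of the cloud, and the 6 SPANX probes that rose at least 2-fold lie above it at the left.

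SSX and CT47 gave almost no signal. Of 27 SSX probes 22 were above background on no array, and the kept ones were 1 of 5 SSX4 probes (0.11 ± 0.11) and SSX2IP (-0.31 ± 0.12), neither called by limma, with 1 of the 2 under an unadjusted p of 0.05. SSX2IP had 161.4, 143.9 and 165.3 against 138.6, 115.6 and 126.5, and its groups overlap after normalization. The median over all 27 was 0.00. Of 6 CT47 probes 0 were kept. By the one with the highest mean, CT47A1 was above background on 2 knockdown arrays and on no control array, at 125.1, 121.1 and 118.2 against 122.8, 124.2 and 122.9, and the median of the 6 was -0.05.

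The third knockdown sample stood apart in GAGE, CT45, PAGE and SPANX. After normalization it was the highest of the 3 knockdown samples for 21 of 24 GAGE, 7 of 8 CT45, 4 of 5 PAGE and 9 of 11 SPANX probes, and for 7221 of all 20657 kept probes. In CTAG it was the highest for 2 of 6 kept probes, in XAGE for 4 of 9 and in SSX for 1 of 2. Relative to the mean of the other knockdown samples its median was 0.34 higher in GAGE, 0.33 in CT45, 0.40 in PAGE and 0.24 in SPANX, and 0.01 lower over all kept probes. It thus lay nearer to the controls in GAGE, CT45 and PAGE and farther from them in SPANX. Without it 8 members were called higher and 44 lower, and the GAGE median was -1.22.

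The genes around these loci had medians near that of all genes. Of the 20 measured X-linked genes nearest to the GAGE locus, 10 on each side, 4 were called higher and 2 lower, with a median of 0.04. At the other loci 0 to 3 of 20 were called in each direction. The corresponding medians were -0.04 at CT45, -0.05 at the SPANXA to SPANXD cluster, -0.03 at CTAG, 0.06 at PAGE2 and PAGE5, -0.02 at XAGE1 and -0.07 at SPANXN3. The nearest measured neighbours of GAGE were PPP1R3F (-0.10 ± 0.12) and CLCN5 (-0.07 ± 0.10), neither called. Those of CT45 were DDX26B (-0.03 ± 0.10) and the cancer-testis gene SAGE1 (0.04 ± 0.10), neither called. SLITRK4, next to SPANXN3, was called lower at -0.82 ± 0.11, and FAM156B, next to XAGE1, was called higher at 0.34 ± 0.09. Of 458 measured X-linked genes outside the families 48 were called higher and 83 lower, with a median of -0.04, against 12.8% and 13.2% of all 15300 measured genes.

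**Figure D4:**
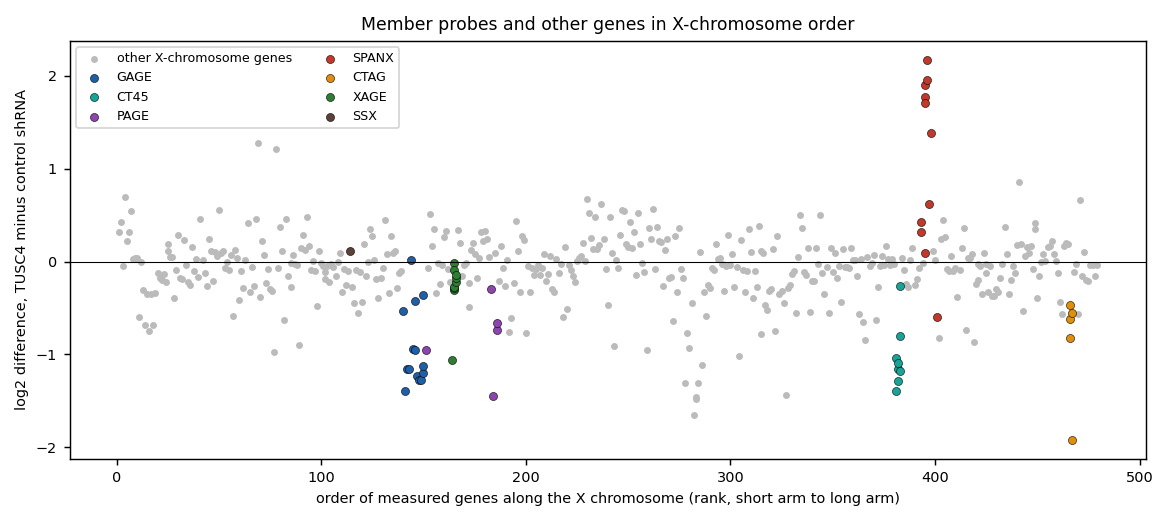
Log2 difference (TUSC4 shRNA minus control shRNA) of 458 measured X-linked genes (grey) and 53 kept member probes (coloured) by rank along the X chromosome, taken from the RefSeq gene order; a symbol shared by several genes is placed at one of them. Most GAGE, CT45 and SPANX points stand off from the grey points on either side. Medians of the grey points near the GAGE, CT45 and SPANXA to SPANXD loci lie between -0.05 and 0.04. GAGE12D (0.02), a CT45A5 probe (-0.26), SPANXC (0.10), SPANXB1 (0.32), SPANXB2 (0.43) and SPANXN3 (-0.60) lie within the range of their measured neighbours.

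Other cancer-testis genes moved less than GAGE and CT45. Of 30 measured genes in a list of other X-linked ones, 1 was called higher and 9 lower, with a median of -0.08. The lower ones included MAGEA10 (at least 1.48-fold lower, -0.87 ± 0.10), VCX (at least 1.4-fold lower, -0.75 ± 0.10), VCX3A (-0.68 ± 0.10) and VCX-C (-0.68 ± 0.11), the VCX genes being near-identical copies. MAGEB10 was higher by 0.46 ± 0.10, at least 1.12-fold. Of 25 measured MAGE genes 2 were called higher and 5 lower, with a median of -0.10. In a list of mostly autosomal cancer-testis genes 4 of 36 were called higher and 8 lower, with a median of -0.11. They included CABYR, a sperm flagellum protein (at least 1.47-fold lower, -0.92 ± 0.10), the germline regulator DPPA2 (at least 1.27-fold lower, -0.69 ± 0.10), PRAME, a tumour antigen (-0.70 ± 0.09) and CEP55, which acts in the last step of cell division (-0.72 ± 0.11). IGF2BP3, an RNA-binding protein, was higher by 0.55 ± 0.11, TDRD1 by 0.42 ± 0.11, ZNF165 by 0.41 ± 0.11 and HORMAD1 by 0.36 ± 0.10. MAGEA10, VCX, CABYR and DPPA2 were above background in the control group only, and MAGEB10 in the knockdown group only. These genes had to differ in order to be kept, so they carry no weight in the counts. Of all measured genes 12.8% were called higher and 13.2% lower, and their median was 0.00.

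Genes that act in DNA methylation, its removal and histone-based silencing were listed as well. Over all measured genes 12.8% were called higher and 13.2% lower, 26% in all. Among 23 measured genes of DNA methylation and its readers 4 were called higher and 3 lower, with a median of 0.05. The de novo methyltransferase gene DNMT3B was higher by 0.44 ± 0.13, and the demethylating enzyme gene TET1 was lower at -0.59 ± 0.09. MBD4, a glycosylase at methylated sites, was higher by 0.44 ± 0.13 and MBD2, a reader of methylated DNA, lower at -0.35 ± 0.10. The stress genes GADD45A (1.11 ± 0.11) and GADD45B (-0.60 ± 0.11) went opposite ways, and MAT2A, which makes the methyl donor, was higher by 0.32 ± 0.11. Among 40 measured genes of histone-based silencing 2 were called higher and 5 lower, with a median of 0.01. BMI1, a Polycomb subunit, was at -0.46 ± 0.12, SIRT1, a deacetylase, at -0.45 ± 0.12 and E2F6, a repressor of germline genes, at -0.37 ± 0.10. C3orf63, the older name of a subunit of the HUSH silencing complex, was at -0.32 ± 0.10. PCGF6, a partner of E2F6, was higher by 0.37 ± 0.12 and PHF19 by 0.34 ± 0.11.

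Marker lists of other cells gave the following values, against 12.8% called higher and 13.2% lower among all measured genes. Of 10 measured germ cell markers 2 were called higher and 1 lower, with DMC1 at 0.39 ± 0.11, ID4 at 0.59 ± 0.13 and SALL4 at -0.43 ± 0.13. Their summed signal ran from 7815 to 9517 in the controls and from 9202 to 12939 in the knockdown samples, most of it from the 1 DMC1 probe (DMC1 signals of 7863.7, 6343.5 and 8056 against 8902.6, 7917.8 and 11420.6). Of 4 measured epithelial markers KRT8 (-0.69 ± 0.12) and KRT18 (-0.31 ± 0.11) were lower, with a summed signal of 1573 to 1858 in the controls and 1076 to 1156 in the knockdown samples. Of 3 measured blood markers CD68 was higher by 0.55 ± 0.10. Of 17 measured mesenchymal and osteosarcoma markers 4 were called higher, among them SPP1 (0.97 ± 0.10) and COL5A1 (0.64 ± 0.12), and 7 lower, among them CDH11 (-1.44 ± 0.13) and COL5A2 (-1.22 ± 0.13). Their summed signal was 38446 to 44047 in the controls and 34012 to 39068 in the knockdown samples. Most of it came from VIM (means of 11800 and 12600) and LGALS1 (15500 and 12000). The sums of all these lists are of signals before normalization. The mean signal of all probes was then 495.8, 448 and 450.6 in the controls and 411.3, 395 and 475.7 in the knockdown samples. The part of these markers in the differences of the cancer-testis families was not tested. In such bulk RNA, fewer cells that express a gene and less RNA per cell cannot be told apart.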

How the data were processed

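The authors deposited average bead signals, which are linear intensity values without normalization, per the file headers. They also deposited log2 values of the same arrays, used as an alternative; all 6 columns have a median of 6.89, and their offset and centring are unknown. BeadStudio is named in the submitters' processing notes. No genome build for the probes was given.

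Signals were corrected with limma's normexp (offset 50), quantile normalized and put on the log2 scale. Background on an array was taken as the peak of its log2 signal density (bandwidth 0.05), with the SD from probes below the peak, and a one-sided normal p under 0.05 marked a probe as above background. Array totals ranged from 20378 to 21485 such probes, and having 6 arrays limits precision. Probes so marked on at least 3 arrays were kept (20657 of 47231, 881 of them without a symbol). Groups were compared with limma 3.58.1 (R 4.3.3), lmFit and eBayes on all kept probes, with Benjamini-Hochberg adjustment. Tested on simulated data, the fit recovered 189 of 200 probes changed by 1 on the log2 scale among 20657, with 8 false calls. The simulated noise was independent between samples, and far fewer probes changed than were called here. It therefore does not give the error rate of the calls above, many of which were at smaller differences. Where all 3 arrays of a group were not above background, the fold is a bound against the lowest value above background. Genes in lists and neighbours are represented by their kept probe with the highest mean.

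The members and lists were chosen with earlier results of these data known. Named with full values are, per family, up to 6 called probes with the largest differences, or the probe with the highest mean where none was called; other probes were named after their values were seen. From each list come up to 4 called genes in each direction with the smallest p. Promoter windows are from RefSeq and were aligned with Biopython 1.88.

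Replicate numbers are shared by the groups in the labels. Same-numbered samples had correlations of deviations of 0.0748, 0.0763 and -0.0937, so the numbers do not pair the samples.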

Additional observations from a re-analysis of the deposited data

How the results depend on the processing

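Of 422 values of the 29 named member probes under up to 15 alternatives, 419 kept the direction and call and 0 reversed. The exceptions were SSX2IP, called lower with median scaling, without normalization and without TUSC4 replicate 1. Apart from SSX2IP, these probes were picked as the called ones with the largest differences in each family, so they were likely to keep their calls. Called probes outside this set, SPANXA2, SPANXB1 and SPANXB2 among them, lost the call under some alternatives. Counts of members called higher ranged from 6 to 9 and lower from 29 to 45 over 16 alternatives, the lowest with 1 probe a gene. The replicate block gave 9 higher and 42 lower, with 1 XAGE1 probe among the lower, and the numbers do not pair the samples. Dim probes moved most: over the alternatives CTAG2 by its first probe ranged from -2.83 to -1.21, PAGE1 from -1.74 to -0.53, XAGE2B from -1.57 to -0.62, SPANXD from 0.85 to 2.06 and SPANXA1 by its second probe from 1.30 to 2.66. Requiring all 6 arrays above background removed every CTAG probe. The causes of the following shifts in medians were not tested. The CT45 median was -1.26 with median scaling, -1.30 without normalization and -0.83 with the authors' values. The PAGE median was -0.68 with an offset of 16, -0.63 with median scaling and -0.67 without normalization, and -0.64 to -0.40 with 1 sample left out. The CTAG median was -0.085 with the offset of 16 and -0.11 without normalization, and -0.078 to -0.017 with 1 sample left out. The CT47 median ranged from -0.115 to 0.022 and the SSX median from -0.054 to 0.016 in those fits. Of the genes in the lists 53 were called, and 34 to 51 with 1 sample left out, the fewest without control sample 1.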
